A study of Mus musculus with 12 samples.

Results

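The 10 transcripts described here are RNAs made from mitochondrial DNA in mouse dorsal root ganglia. They encode 7 subunits of complex I, cytochrome b of complex III and both mitochondrially encoded subunits of ATP synthase. They were chosen by transcript ID under a rule that uses no measured value, and all 10 were found among the 101744 IDs of the deposited table. The table holds IDs without names, so the symbols rest on the list of IDs and not on the file. Every sample carried the genotype RPL22HA+/+;Advillin-Cre+, a RiboTag design in which Cre under the Advillin promoter, which peripheral sensory neurons use, puts an HA tag on RPL22, a protein of the large ribosomal subunit. The 12 samples form 4 groups of 3, namely anti-HA immunoprecipitate (IP) of ganglia after sciatic nerve injury, IP of uninjured ganglia, input of injured ganglia and input of uninjured ganglia. Time after injury, animal numbers, ages and pooling are not stated in the labels, and no IP from animals without the tag is among the 12 samples. The labels name the input total RNA but give for it the extraction protocol of the IP. How the input RNA was made is thus uncertain, which bears on every ratio of IP to input below.

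Mitochondrial DNA is transcribed from both strands as long RNAs, which are cut mostly at the tRNAs that lie between the genes. The resulting mRNAs stay in the mitochondrial matrix and are translated there by mitochondrial ribosomes, which contain no RPL22. The tagged cytosolic ribosomes do not translate them, and their level in the IP is read here as background, that is, as RNA recovered along with the tagged ribosomes. The proteins sit in the inner mitochondrial membrane, where complex I and complex III build the proton gradient and ATP synthase spends it, a supply on which neurons with long axons depend. In the RefSeq gene table (assembly GRCm38.p6, used for gene order alone) mt-Atp8 overlaps mt-Atp6, mt-Nd4l overlaps mt-Nd4, and mt-Nd5 overlaps mt-Nd6. The first 2 of these pairs are each carried on a shared mRNA, so a read can match both members. mt-Nd6 is encoded on the other strand, and whether strand was used in counting is not given in the sources used here. Copies of mitochondrial DNA in the nuclear genome can also take up reads of these RNAs.

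Summed over the 3 samples of a group, the table held 571897 estimated counts in IP injured, 635927 in IP uninjured, 4753793 in input injured and 5055830 in input uninjured. The spread of the 10 transcripts between the 3 samples of a group was near counting noise in 3 groups and above it in IP uninjured. Measured as the median chi-square statistic divided by the median that counting noise gives, it was 1.13 in IP injured, 2.86 in IP uninjured, 1.36 in input injured and 0.874 in input uninjured. Over all transcripts with a mean of at least 100 counts it was 1.45, 1.12, 1.35 and 1.48 in the same order. The higher value in IP uninjured was thus not seen over all transcripts. mt-Atp8 stood apart, with a chi-square per degree of freedom of 3.63, 3.39, 5.51 and 4.11 in these groups, against at most 2.64 for any other of the 10 in any group. The 3 samples of a group, which also have nearly equal totals, were treated as portions of 1 sample. Differences between groups then have no replicate check, and the 95% intervals cover counting error only. Of the 120 values of these transcripts 118 were not whole numbers, against 3.00% to 11.4% of all values in a sample. All values include zeros, which are whole, and only 35917 of the 101744 transcripts had a count in any sample. The contrast is thus not matched for abundance and does not set these 10 apart. Values that are not whole arise when reads are divided among transcripts.

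Together the 10 transcripts took a larger share of the IP libraries than of the input libraries. They made up 4.71%, 4.87% and 4.87% of all estimated counts in the 3 portions of IP injured, and 3.53%, 3.58% and 3.61% in IP uninjured. In input injured they made up 1.40%, 1.42% and 1.41%, and in input uninjured 1.90%, 1.92% and 1.91%. The 4 groups did not overlap. Over the summed counts the share was 4.82% (exact binomial 95% interval 4.76% to 4.87%) in IP injured, 3.57% (3.53% to 3.62%) in IP uninjured, 1.41% (1.40% to 1.42%) in input injured and 1.91% (1.90% to 1.92%) in input uninjured. In injured ganglia the share was thus higher in IP and lower in input than in uninjured ganglia. As shares of a library they move with every other RNA in it. In bulk tissue, fewer cells of a type and less RNA per cell cannot be told apart.

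**Figure D1:**
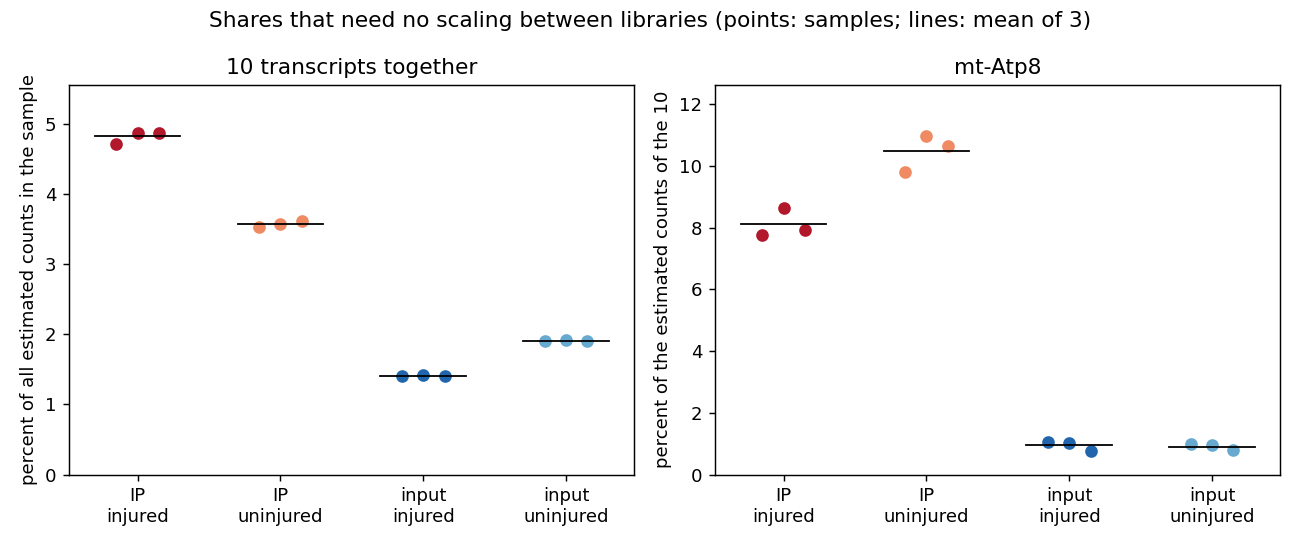
Left, percent of all estimated counts of a sample that the 10 transcripts hold together. Right, percent of the estimated counts of the 10 that mt-Atp8 holds. Points are the 3 samples of a group and lines their mean. The share of the 10 is 3.53% to 4.87% in the IP samples and 1.40% to 1.92% in the input samples, and mt-Atp8 makes up 7.78% to 11.0% of the 10 in IP and 0.774% to 1.06% in input.

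The level of each RNA in IP was set against its level in input as a ratio. This ratio compares scaled shares of libraries and is not the fraction of an RNA recovered. Levels are given as scaled CPM, that is, CPM computed on library totals multiplied by their TMM factors. On this scale the summed level of the 10 was 26437 in IP injured and 25275 in input injured, a ratio of 1.05 (95% counting interval 1.03 to 1.06). It was 20851 in IP uninjured and 33215 in input uninjured, a ratio of 0.628 (0.619 to 0.637). Whether these ratios lie above or below 1 depends on the scaling. Library totals alone multiply every IP to input ratio by 3.27 in injured and 2.98 in uninjured ganglia, which gives 3.42 and 1.87 for the sum. Transcripts were compared where the higher group reached 10 CPM on the scale used, so the scaling also changes which are compared. With TMM scaling the median log2 ratio was -0.64 over 9718 compared transcripts in injured ganglia and -0.59 over 10236 in uninjured ganglia. With library totals alone it was 1.79 over 10568 and 1.67 over 10461. On the TMM scale the summed ratio of the 10 was above that of 60.5% of compared transcripts in injured ganglia and of 48.9% in uninjured ganglia. Neither share is matched for abundance. The place of the summed ratio among all transcripts differed with library totals alone. There its log2 value was 1.77 in injured and 0.90 in uninjured ganglia, below the median in both.

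A call needed a difference of 2-fold or more, a counting interval that left out 1, and portions that did not overlap between the groups. In injured ganglia 3 of the 10 were called higher in IP and 0 lower, against 17.0% and 39.0% of all compared transcripts. In uninjured ganglia 1 was called higher and 2 lower, against 19.6% and 39.8%. With library totals alone 10 of 10 were called higher in injured ganglia and 5 of 10 in uninjured ganglia, against 48.4% and 45.7% of the transcripts compared on that scale. The median log2 ratio of the 10 was 0.12 in injured and -0.57 in uninjured ganglia, which lies 0.76 and 0.01 above the median of all compared transcripts. With library totals alone it lay 0.04 above and 0.66 below that median. Over transcripts with 100 or more summed counts in both groups, as all 10 had, the TMM-scaled median differed. It was -0.47 over 596 transcripts in injured and 0.51 over 634 in uninjured ganglia. The median of the 10 lay above the first and below the second. The shares of calls given here are likewise not matched for abundance.

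**Figure D2:**
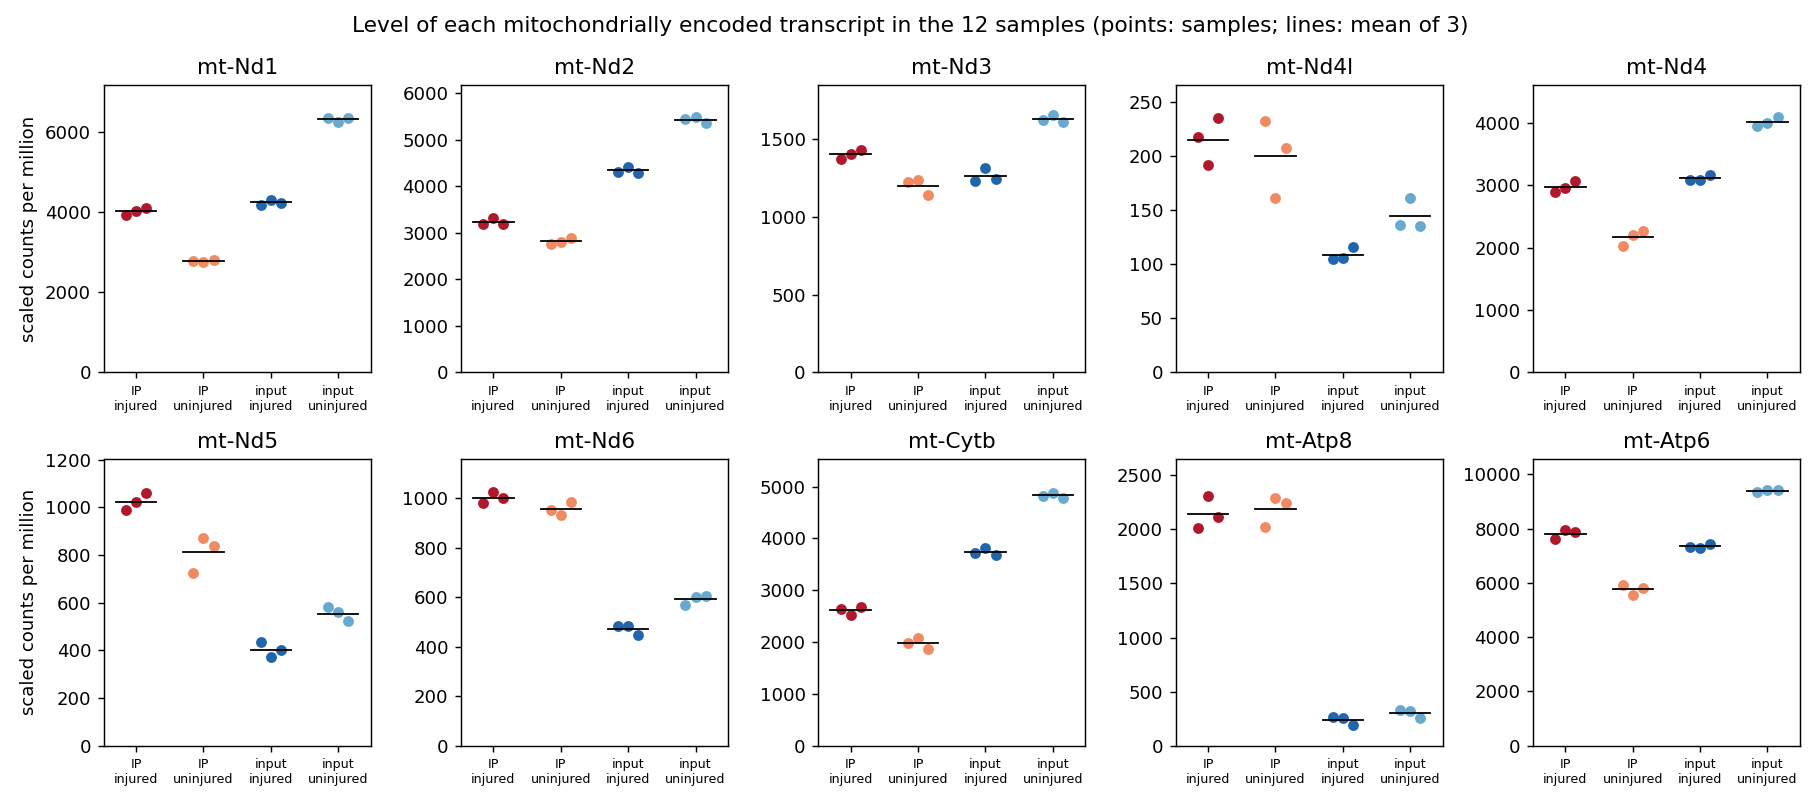
Level of each of the 10 transcripts in each of the 12 samples, in scaled CPM. Points are samples and lines the mean of the 3 samples of a group. mt-Atp8 is at or above 2010 in every IP sample and at or below 327 in every input sample, while mt-Cytb is higher in every input sample than in any IP sample.

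The 10 transcripts differed widely in this ratio. The highest and the lowest were 12.8-fold apart in injured and 17.7-fold apart in uninjured ganglia, and these spreads do not depend on the scaling. The order was nearly the same in both conditions. Across the 10 the log2 ratios in injured and uninjured ganglia, which share no sample, had a Pearson r of 0.988, and of 0.965 without mt-Atp8.

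mt-Cytb (ENSMUST00000082421) encodes cytochrome b, the subunit of complex III that carries its quinone sites, and had the lowest ratio. It had 2643, 2519 and 2687 scaled CPM in the portions of IP injured, against 3715, 3815 and 3677 in input injured. The ratio was 0.700 (0.671 to 0.731). In uninjured ganglia it was 0.410 (0.391 to 0.429), with 1990, 2074 and 1870 scaled CPM in IP and 4818, 4884 and 4784 in input. All IP portions were below all input portions in both conditions. Only mt-Cytb and mt-Nd1 were at least 2-fold lower in IP, and only in uninjured ganglia with TMM scaling. With library totals alone mt-Cytb was higher in IP, at 2.29 and 1.22 times input in injured and uninjured ganglia.

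Among the complex I transcripts, those of mt-Nd1, mt-Nd2 and mt-Nd4 had low ratios. mt-Nd2 (ENSMUST00000082396) and mt-Nd4 (ENSMUST00000082414) encode proton-pumping subunits of the membrane arm, and mt-Nd1 (ENSMUST00000082392) a membrane subunit next to the quinone channel. The ratios in injured and uninjured ganglia were 0.948 and 0.438 for mt-Nd1, 0.744 and 0.518 for mt-Nd2, and 0.954 and 0.540 for mt-Nd4. mt-Nd3 (ENSMUST00000082411), a small membrane subunit, followed with 1.11 and 0.738. Its portions lay at 1374 to 1434 scaled CPM in IP injured against 1231 to 1318 in input injured, and at 1145 to 1236 in IP uninjured against 1611 to 1658 in input uninjured. All 4 had lower values in IP than in input in uninjured ganglia with TMM scaling, and higher ones with library totals alone.

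The other 3 complex I transcripts had ratios above 1 on both scales. mt-Nd5 (ENSMUST00000082418) encodes the outermost pumping subunit and reached 2.54 (2.33 to 2.77) in injured and 1.46 (1.35 to 1.59) in uninjured ganglia. mt-Nd6 (ENSMUST00000082419), from the other strand, reached 2.12 (1.95 to 2.31) and 1.61 (1.49 to 1.74). Its portions were 980, 1024 and 1000 scaled CPM in IP injured against 485, 484 and 448 in input injured, and 950, 930 and 985 in IP uninjured against 569, 602 and 605 in input uninjured. The IP portions of mt-Nd5 and mt-Nd6 were above the input portions in both conditions. mt-Nd4l (ENSMUST00000084013), the smallest complex I member of the list, had 1.98 (1.66 to 2.37) in injured and 1.39 (1.17 to 1.64) in uninjured ganglia. It rested on only 224 and 218 summed counts in IP, and its uninjured IP portions of 232, 161 and 208 scaled CPM reached down to the highest input portion, 161, so that these groups met.

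mt-Atp8 (ENSMUST00000082407) encodes a short membrane subunit of ATP synthase and was the furthest above input. It had 2010, 2305 and 2117 scaled CPM in IP injured, against 267, 257 and 195 in input injured, a ratio of 8.96 (8.20 to 9.80). In uninjured ganglia it had 2024, 2289 and 2247 in IP, against 327, 317 and 261 in input, a ratio of 7.25 (6.71 to 7.85). These ratios were above those of 95.3% and 91.8% of the compared transcripts, shares that are not matched for abundance. mt-Atp6 (ENSMUST00000082408), its neighbour on the same mRNA, encodes the subunit that forms the proton path of ATP synthase. Its ratio was 1.06 (1.03 to 1.09) in injured and 0.614 (0.597 to 0.631) in uninjured ganglia, where it turned to 1.83 with library totals alone. When the counts of this pair were summed, the ratio was 1.31 (1.28 to 1.34) and 0.820 (0.801 to 0.840).

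**Figure D3:**
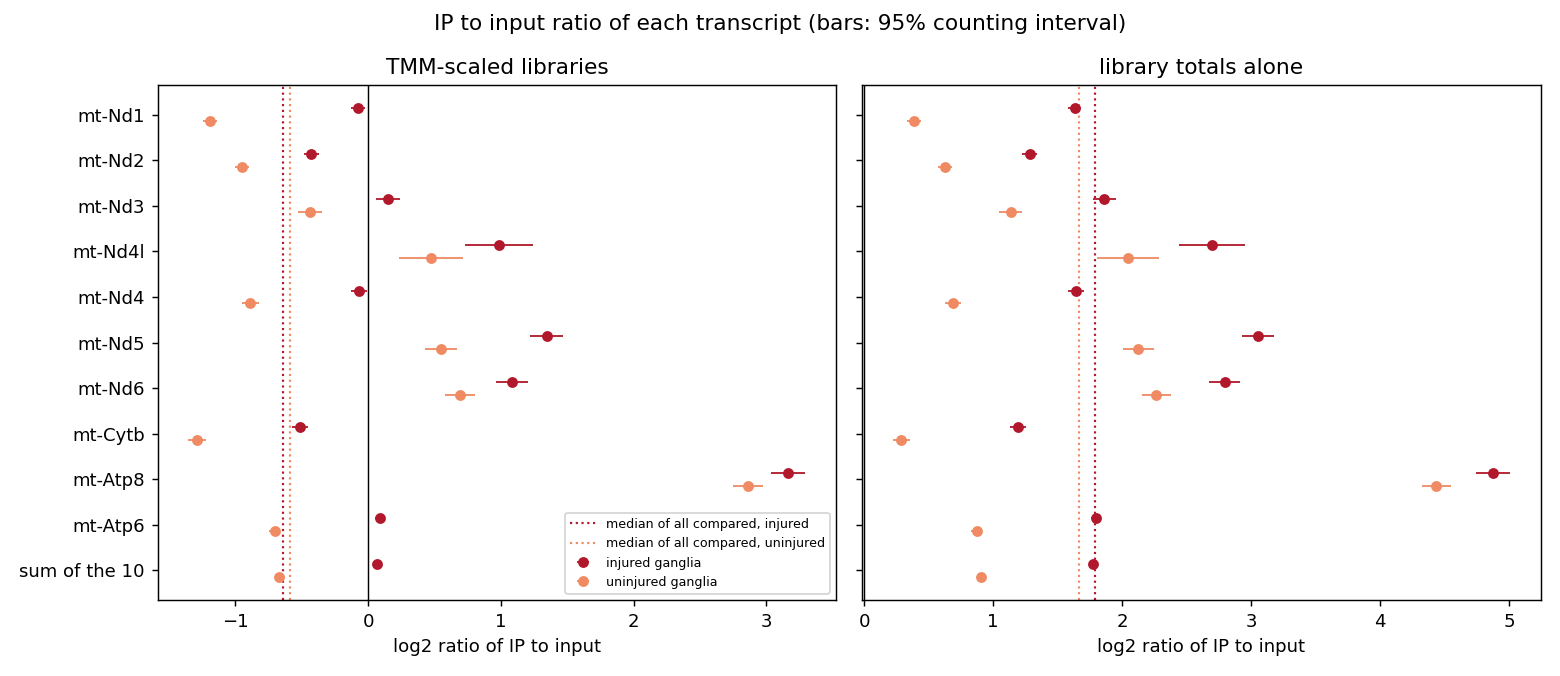
log2 ratio of IP to input for each transcript and for the sum of the 10, in injured and uninjured ganglia, with TMM scaling (left) and with library totals alone (right). Bars are 95% counting intervals and dotted lines the median of all compared transcripts. mt-Atp8 lies far to the right in both panels, and every transcript has a higher ratio in injured than in uninjured ganglia.

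The ratio of the estimated counts of overlapping neighbours within a library needs no scaling. For the 2 pairs on a shared mRNA it was higher in IP than in input, with no overlap of portions in either condition. For mt-Atp8 over mt-Atp6 the portions had 0.263, 0.290 and 0.270 in IP injured against 0.0364, 0.0352 and 0.0262 in input injured. They had 0.342, 0.412 and 0.386 in IP uninjured against 0.0350, 0.0337 and 0.0277 in input uninjured. This ratio was 8.43 times as high in IP as in input of injured ganglia and 11.8 times as high in uninjured ganglia. For mt-Nd4l over mt-Nd4 it was 2.08 and 2.57 times as high, at 0.0723 (0.0629 to 0.0829) in IP injured against 0.0348 (0.0308 to 0.0392) in input injured, and at 0.0922 (0.0799 to 0.106) in IP uninjured against 0.0359 (0.0325 to 0.0396) in input uninjured. For mt-Nd6 over mt-Nd5, encoded on opposite strands, it was 0.978 (0.898 to 1.07) in IP injured against 1.17 (1.08 to 1.27) in input injured, and 1.18 (1.08 to 1.29) in IP uninjured against 1.07 (0.998 to 1.14) in input uninjured, where the intervals overlapped. In both pairs on a shared mRNA the member that lies first was thus relatively more frequent in IP. mt-Atp8 was also the transcript whose portions differed most beyond counting noise. How far the division of reads between overlapping transcripts moved these ratios was not tested.

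**Figure D4:**
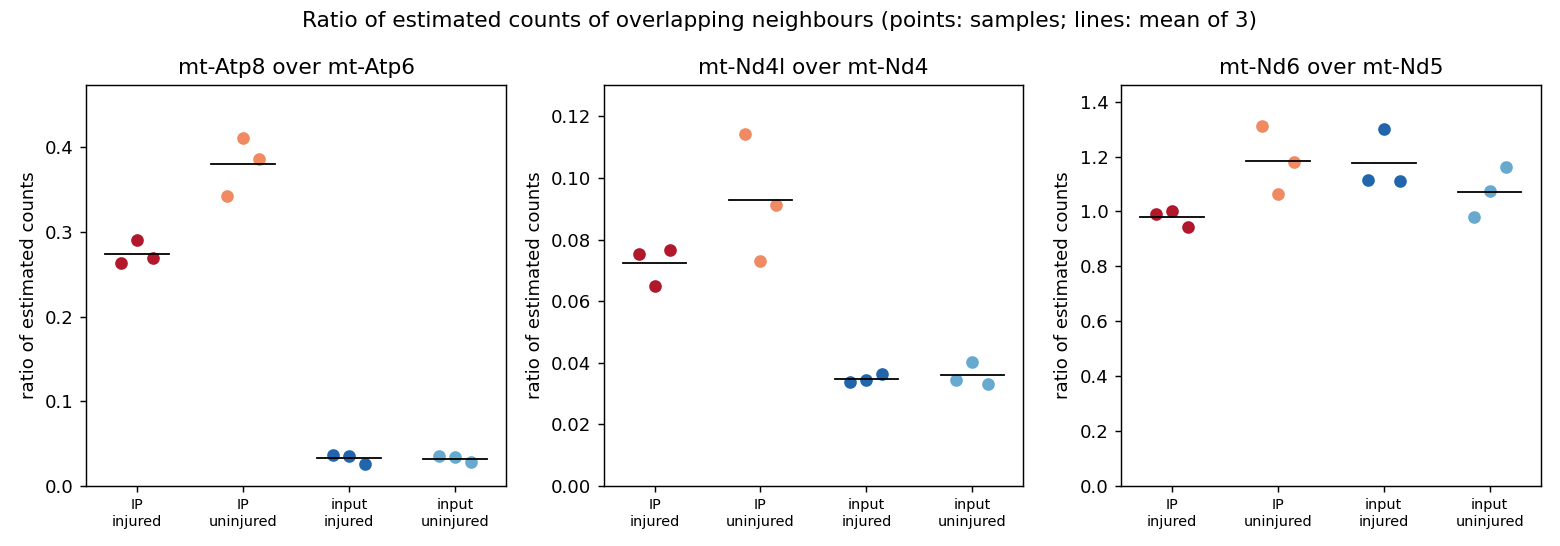
Ratio of the estimated counts of overlapping neighbours within each sample. Points are samples and lines the mean of 3. For mt-Atp8 over mt-Atp6 the IP samples lie at 0.263 to 0.412 and the input samples at 0.0262 to 0.0364, while mt-Nd6 over mt-Nd5 lies at 0.944 to 1.31 over all 12 samples.

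In the IP, most of these RNAs were at a higher level after nerve injury. The summed level of the 10 was 26437 scaled CPM in IP injured and 20851 in IP uninjured, a ratio of 1.27 (1.25 to 1.29). None of the 10 differed 2-fold, against 11.8% of 8041 compared transcripts called higher and 10.5% called lower. For 7 of the 10 all portions of IP injured were above all portions of IP uninjured, against 18.7% of compared transcripts. Portions separate more readily at higher counts. Only 530 of the 8041 compared transcripts had 100 or more summed counts in both groups, as all 10 had. The 18.7% is thus not matched for abundance. The median log2 ratio of the 10 was 0.28, against -0.06 for all compared transcripts, and 0.37 against 0.15 with library totals alone.

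mt-Nd1 had the largest difference of the 10 in IP. Its portions were 3919, 4039 and 4107 scaled CPM in IP injured, against 2770, 2742 and 2797 in IP uninjured, a ratio of 1.45 (1.39 to 1.52). mt-Nd4 followed with 2889, 2957 and 3067 against 2031, 2205 and 2274, a ratio of 1.37 (1.30 to 1.45). The portions of these subunit transcripts lay clearly apart. mt-Atp6 had 7629, 7939 and 7854 against 5909, 5562 and 5815, a ratio of 1.35 (1.31 to 1.40), and mt-Cytb a ratio of 1.32 (1.25 to 1.40). mt-Nd5, mt-Nd3 and mt-Nd2 had ratios of 1.26 (1.15 to 1.38), 1.17 (1.08 to 1.26) and 1.15 (1.09 to 1.21). The portions of the remaining 3 overlapped between injured and uninjured IP. Their ratios were 1.07 (0.888 to 1.30) for mt-Nd4l, 1.05 (0.961 to 1.14) for mt-Nd6 and 0.981 (0.925 to 1.04) for mt-Atp8. The mt-Atp8 ratio turns to 1.04 with library totals alone. A DESeq2 fit with the samples as replicates also put mt-Atp8 above 0, at a log2 ratio of 0.032. Within the IP the ratio of mt-Atp8 to mt-Atp6 was accordingly lower in injured ganglia, at 0.275 (0.262 to 0.288) against 0.379 (0.362 to 0.398) in uninjured ganglia, a value of 0.724 times.

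In the input all 10 were lower after injury. The labels name this RNA total RNA, but the extraction protocol given for it is that of the IP. Their summed level was 25275 scaled CPM in input injured and 33215 in input uninjured, a ratio of 0.761 (0.753 to 0.769). None differed 2-fold, against 9.07% of 9139 compared transcripts called higher and 7.45% called lower. For 9 of the 10 all portions of input injured were below all portions of input uninjured, against 25.0% of compared transcripts. The exception was mt-Atp8, whose portions of 267, 257 and 195 scaled CPM in input injured met those of 327, 317 and 261 in input uninjured. Of the 9139 compared transcripts 2789 had 100 or more summed counts in both groups, as all 10 had. The 25.0% is thus not matched for abundance. The median log2 ratio of the 10 was -0.37, against -0.12 for all compared transcripts.

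The size of this difference was alike for most of the 10. mt-Nd1 was the furthest apart, with 4189, 4301 and 4242 scaled CPM in input injured against 6348, 6269 and 6352 in input uninjured, a ratio of 0.671 (0.656 to 0.687). The interval of mt-Nd1 lay below those of mt-Nd2, mt-Nd3, mt-Nd4, mt-Nd6, mt-Cytb, mt-Atp6 and mt-Atp8. The other 9 had ratios between 0.727 (0.672 to 0.786), for mt-Nd5, and 0.799 (0.780 to 0.818), for mt-Nd2. mt-Atp6 had 7315, 7293 and 7445 scaled CPM against 9330.2, 9415 and 9418, a ratio of 0.783 (0.769 to 0.798). mt-Nd6, from the other strand, had a ratio of 0.797 (0.740 to 0.858), within the range of the others. The ratio of mt-Atp8 to mt-Atp6 in input was 0.0326 (0.0300 to 0.0352) after injury against 0.0321 (0.0300 to 0.0343) in uninjured ganglia, and the intervals overlapped.

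**Figure D5:**
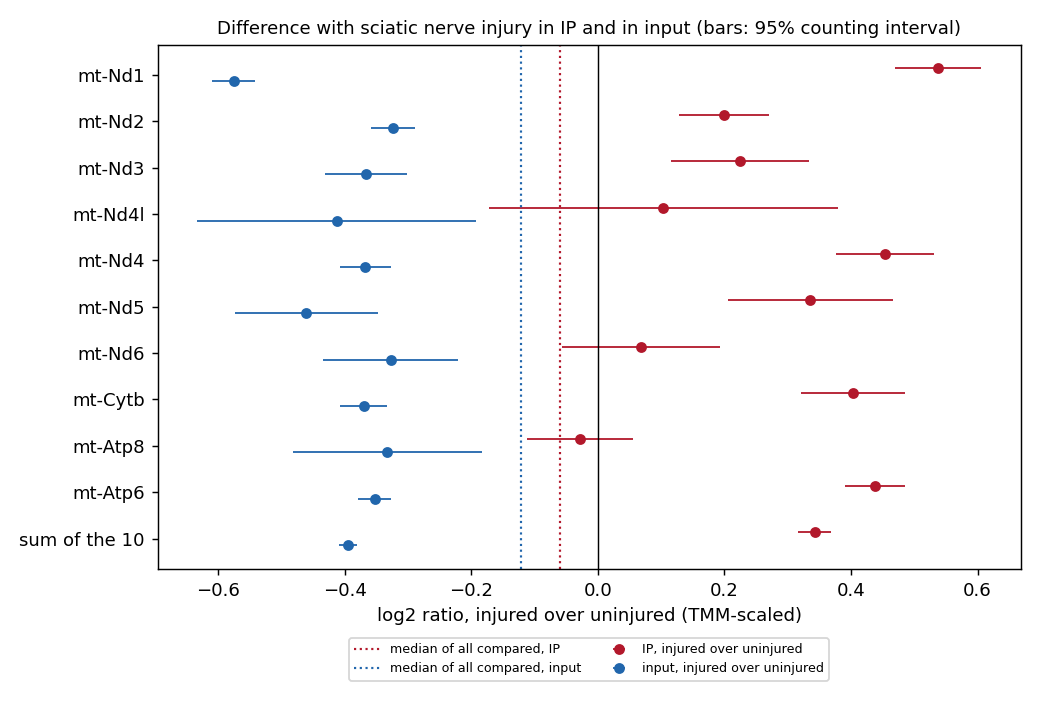
log2 ratio of injured to uninjured ganglia for each transcript and for the sum of the 10, in IP and in input, with TMM scaling. Bars are 95% counting intervals and dotted lines the median of all compared transcripts. All input values lie left of 0 and all IP values but that of mt-Atp8 lie right of it. The mt-Atp8 value turns positive with library totals alone and in the DESeq2 fit.

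The last comparison asks whether injury went with another difference in IP than in input. The log2 injury ratio was higher in IP than in input for all 10 transcripts, by 0.30 to 1.11, and by 0.74 (0.71 to 0.77) for their sum. The median over the 10 was 0.68, against 0.04 for the 4928 transcripts that had 10 or more counts in each of the 4 groups. Of those 4928, 51.5% had a value above 0. mt-Nd1, with 1.11 (1.04 to 1.19), was the only one of the 10 to reach 1, against 10.9% of the 4928 called higher by that size. Next came mt-Nd4 with 0.82 (0.73 to 0.91), mt-Nd5 with 0.80 (0.63 to 0.97), mt-Atp6 with 0.79 (0.74 to 0.85) and mt-Cytb with 0.77 (0.68 to 0.86). mt-Atp8 had the smallest value, 0.30 (0.13 to 0.47). For 7 of the 10 the portions were all higher in injured than in uninjured IP and all lower in injured than in uninjured input, against 4.57% of 5689 transcripts compared in both. The exceptions were mt-Nd4l, mt-Nd6 and mt-Atp8. The 4.57% is not matched for abundance.

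Taking the 3 samples of a group as replicates, edgeR's quasi-likelihood test over 9959 transcripts gave the same directions. It called 7 of the 10 higher in injured than in uninjured IP at a Benjamini-Hochberg adjusted p under 0.05, against 7.10% of all tested, and 8 of the 10 lower in injured than in uninjured input, against 3.64%. The interaction was called higher in IP for 7 of the 10, against 3.09%. These shares over all tested transcripts are not matched for abundance. For mt-Nd1 the edgeR adjusted p was 1.87e-05 in IP, 2.37e-05 in input and 4.91e-06 for the interaction. mt-Nd4l and mt-Atp8 were called in none of the 3, with edgeR adjusted p of 0.777 and 0.967 in IP and 0.146 and 0.150 in input. mt-Nd6 was called in input alone, with edgeR adjusted p of 0.631 in IP and 0.0563 for the interaction. In DESeq2, another fit with the samples as replicates, the mt-Nd6 interaction was called too, with DESeq2 adjusted p of 0.00119. These p-values measure the spread between samples that may be portions of 1 library, not between animals.

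Over the 12 samples the level of the sum of the 10 was most like that of ENSMUST00000082405.1 among 1051 other transcripts with a mean of at least 100 counts per sample (Pearson r of 0.888 on log2 scaled CPM), a description over samples that share 4 groups. That transcript had 3909.7 scaled CPM in IP injured, 2014 in IP uninjured, 4934.5 in input injured and 5836 in input uninjured. ENSMUST00000031131.11 was next with r of 0.844. The table gives neither of them a name.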

How the data were processed

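Ganglion RNA was sequenced on nanopores after PCR-cDNA barcoding, per the labels. The deposited file holds estimated counts per transcript, made by the authors. Salmon, minimap2 and the builds GRCm39 and mm39 appear, without roles or settings, in the submitters' processing notes. The rule for the 10 transcripts uses their IDs and no measured value, but it and the lists were chosen with earlier results of these data known.

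The 3 samples of a group were summed and rounded, and the planned test is a ratio with an exact conditional counting interval. Library totals were scaled with TMM factors (edgeR 4.0.16) from 9959 transcripts passing filterByExpr. The plan named all 10 transcripts, plus the 2 most like their sum. The rule on non-overlapping portions alone was added after the data were seen. edgeR's quasi-likelihood fit and DESeq2 1.42.0 took the samples as replicates, on rounded counts. The ratio and call rule and the edgeR fit were run on simulated data for injury in IP alone, drawn with counting noise only. That simulation does not cover the other comparisons, or spread beyond counting noise such as that of mt-Atp8. Samples with the same replicate number were not clearly correlated. With spread near counting noise this cannot decide whether the numbers pair the samples. None of the file's IDs (0) matched the gene tables, so nuclear subunits and cell type markers were not analysed here, and no sequence of these genes was used.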

Additional observations from a re-analysis of the deposited data

Results flagged for a closer look

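For 7 transcripts every portion was higher in injured than in uninjured IP while every portion was lower in injured than in uninjured input, against 4.57% of the 5689 transcripts compared in both. The log2 injury ratio was higher in IP than in input by 1.11 for mt-Nd1, 0.82 for mt-Nd4, 0.80 for mt-Nd5, 0.79 for mt-Atp6, 0.77 for mt-Cytb, 0.59 for mt-Nd3 and 0.52 for mt-Nd2. The difference was not tested between animals. In edgeR's interaction test, which takes the samples as replicates, these 7 had Benjamini-Hochberg adjusted p between 4.91e-06 and 0.00592. Of all tested transcripts 3.09% were called in this direction. The 7 were picked by the portions of these same samples, so these p-values are no separate support. Neither the 4.57% nor the 3.09% is matched for abundance. Groups of 3 samples are too small for the search for single outlying samples.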

How the results depend on the processing

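The direction of the IP to input ratio was the value most dependent on scaling. For the sum of the 10, the log2 ratio in injured ganglia was 1.77 with library totals alone, -0.0078 with TMM factors without a filter and 0.28 with factors from the compared groups alone (0.06 reported). In uninjured ganglia it was 0.90 with library totals alone, -0.65 with DESeq2 size factors, -0.72 without a filter and -0.55 with the compared groups alone (-0.67 reported). The medians over the 10 were 1.83 and 1.00 with library totals alone and 0.068 and -0.63 with overlapping pairs summed. Library totals alone turned 4 of the 10 transcripts to higher in IP in injured ganglia (mt-Nd1, mt-Nd2, mt-Nd4 and mt-Cytb) and 6 in uninjured ganglia (these 4, mt-Nd3 and mt-Atp6), where the called mt-Nd1 had 0.39 and mt-Cytb 0.29. Which scale is nearer to the RNA amounts was not tested.

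The injury differences of the sum and of the median kept their directions under all scalings and fits run. In IP the sum was 0.43 with library totals alone and 0.40 with the compared groups alone (0.34 reported), and the median was 0.34 in DESeq2, 0.37 with totals and 0.33 with pairs summed (0.28). In input the sum was -0.44 with totals, -0.38 with DESeq2 size factors and -0.27 with the compared groups alone (-0.39), and the median was -0.33 in DESeq2 and -0.41 with totals (-0.37). The difference of the effects was 0.87 for the sum and 0.82 for the median with totals (0.74 and 0.68).

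Leaving out 1 sample gave a log2 ratio of IP to input of 0.025 to 0.12 in injured and -0.73 to -0.59 in uninjured ganglia. For injury it gave 0.27 to 0.37 in IP, -0.51 to -0.35 in input and 0.67 to 0.84 for their difference. Portions, fewer here, did not overlap for 7 to 8 transcripts in IP and 9 to 10 in input, with no share over all transcripts. The share of the library was 4.79% to 4.87% in IP injured, 3.55% to 3.59% in IP uninjured, 1.40% to 1.41% in input injured and 1.905% to 1.911% in input uninjured. Among the 10, mt-Atp8 held 7.85% to 8.27%, 10.2% to 10.8%, 0.892% to 1.03% and 0.869% to 0.969% in these groups and mt-Atp6 29.4% to 29.6%, 27.1% to 28.1%, 28.9% to 29.3% and 28.2% to 28.3%. mt-Atp8 and mt-Atp6 together held 37.6%, 38.1%, 30.0% and 29.2%. In single transcripts the sign in IP after injury changed in 5 of 120 such values, those near 0 of mt-Nd4l, mt-Nd6 and mt-Atp8.

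With the replicate number as a block, the medians were 0.10 and -0.59 for IP against input in injured and uninjured ganglia, 0.28 for injury in IP, -0.36 in input and 0.68 for the difference. The edgeR calls among the 10 then numbered 4 higher in IP, against 5.45% of all tested, and 7 lower in input, against 2.26%. The edgeR adjusted p with the block was 0.0515 for mt-Nd2, 0.0801 for mt-Nd3 and 0.0942 for mt-Nd5 in IP, and 0.0577 for mt-Nd6 in input. Over all tested, DESeq2 called 907 higher and 845 lower in input after injury, edgeR 543 and 363. The numbers share no stated origin, and same-numbered samples correlated at -0.10 to 0.22. Depth limits mt-Nd4l most, with 224 and 218 counts in injured and uninjured IP.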
